A study of Oryza sativa with 6 samples.

Results

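A set of 10 dehydration-responsive element binding (DREB) loci of rice, of 29689 loci with a probe on the array, was followed in roots exposed to ferulic acid (FA). They were chosen by locus ID, matched to the locus that starts each probe's name, and 25 probes carried them: 3 loci had 1 probe and 7 had several. Their IDs place 3 of them on chromosome 9 (Os09g0522000, Os09g0522100 and Os09g0522200, which are consecutive in number), 2 on chromosome 6 and 1 each on chromosomes 1, 2, 4, 5 and 8. In the study's family list 8 are described as DREB1-type or CBF-type proteins and 2, Os01g0165000 and Os05g0346200, as DREB2-type proteins. The measured groups were roots of 6-day-old seedlings of cv. TN-67 given 50 ppm FA for a short exposure, in which RNA from 1 and 3 h was pooled, and roots given 50 ppm FA for a long exposure of 24 h, each against roots of seedlings of the same age and cultivar given water in parallel. Each exposure had 3 biological replicates on 3 two-colour arrays, with FA RNA always in the red channel (Cy5) and control RNA in the green channel (Cy3), so a dye effect and the treatment cannot be told apart. The pooling of 1 and 3 h leaves the short exposure without a time course, and the RNA came from root tips that hold many cell types.

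DREB proteins are plant transcription factors of the AP2/ERF family, whose AP2 domain binds the dehydration-responsive element, also called the C-repeat, in the promoters of stress genes. DREB1 proteins, known as CBF proteins in Arabidopsis, are best known as early and short-lived regulators in the cold response, whereas DREB2 proteins are best known from drought, salt and heat, and in Arabidopsis are also controlled after translation. FA is a phenolic acid that plants release into soil and that slows root growth.

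Values are log2 ratios of FA over control within an array, given as mean ± SD over 3 arrays. Signals are processed intensities after dye normalization and carry no unit. A locus was represented by its probe with the highest mean signal, and the other probes are given beside it. "Rose" and "fell" are used for a Benjamini-Hochberg adjusted p under 0.1 in limma's test of the mean ratio against 0. A change is described as called where the mean ratio was also at least 2-fold in either direction. Only probes that reached a processed signal of 100 on 1 or more arrays of an exposure, in FA or control RNA, were tested, and 8 of the 10 loci met this limit in each exposure. Os09g0522000 and Os02g0677300 were below this limit after short exposure, and Os06g0127100 and Os02g0677300 after long exposure. All arrays were alike in detection: 72.3% to 76.9% of probes were well above background in the FA channel and 68.2% to 75.2% in the control channel. Ratios were correlated over the 27023 probes that met the signal limit in either exposure and had a value on every array. The correlations were 0.899 to 0.913 between the short-exposure arrays, 0.732 to 0.780 between the long-exposure arrays and 0.332 to 0.473 between arrays of different exposure.

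After short exposure 2 of the 8 tested DREB loci, Os06g0127100 and Os08g0545500, were called, both higher. Across the array 9.57% of 19093 tested loci were called after short exposure, 1343 higher and 484 lower. By the adjusted p alone 6 DREB loci rose and 1 fell, where 68.0% of all tested loci passed that limit, so a pass without the fold limit was common on these arrays. The median log2 ratio of the 8 tested loci was 0.54, against -0.09 over all tested loci. After long exposure 1 of the 8 tested loci, Os04g0572400, was called, and it was lower, where 2.49% of 18661 tested loci were called. By the adjusted p alone 4 loci rose and 2 fell, against 57.7% of all tested loci. The median log2 ratio of the tested DREB loci after long exposure was 0.14, against -0.03 over all tested loci. Which loci were tested differed between the exposures, so the medians are not over the same 8 loci. Os06g0127100 and Os08g0545500 reached the signal limit after short exposure through the FA channel alone, so the counts and medians of the loci tested are a description and not support for a direction.

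**Figure D1:**
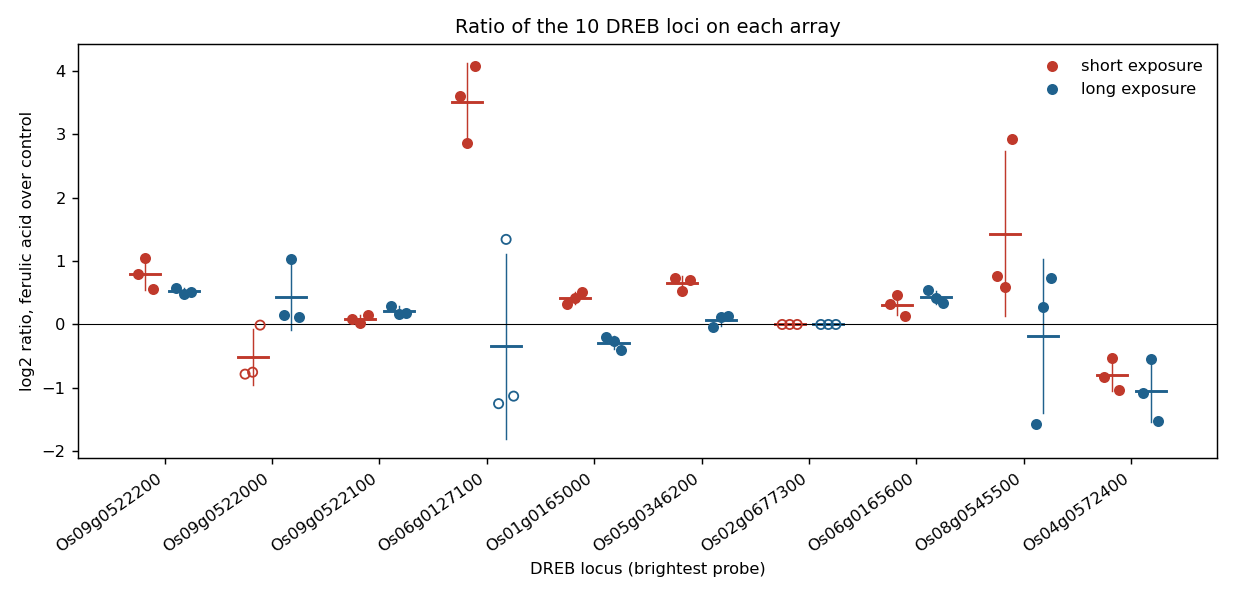
Log2 ratio of FA over control on each array (points), with the mean (bar) and SD (line), for the brightest probe of each DREB locus after short (red, left) and long (blue, right) exposure; open points mark loci that were not tested. Os06g0127100 stands between 2.86 and 4.08 on the short-exposure arrays, and Os04g0572400 is below 0 on all 6 arrays.

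Os06g0127100, described as a CBF-like protein, had the highest ratio of the 10 loci after short exposure. Its only probe gave 101.0, 215.9 and 200.9 in the FA channel of the 3 short-exposure arrays, against 8.28, 29.7 and 11.9 in the control channel. The FA channel was well above background on all 3 arrays and the control channel on none, and the signal ranges did not overlap. The log2 ratios were 3.61, 2.86 and 4.08, a mean of 3.52 ± 0.61 (SD, n = 3, standard error 0.22, limma adjusted p = 0.000116). The locus was tested because its FA channel alone reached the signal limit, so this adjusted p is a description and not support for a direction. Since the control was not well above background, only a bound holds for the fold. Per-channel values, normalized by loess and Aquantile, gave at least 8.43-fold higher signal in FA roots than in control roots, where the control value of an array was raised to that array's weakest control signal well above background if it lay below it. With normexp background correction, whose offset of 50 is larger than the control signals, the log2 ratio was 1.65.

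After long exposure the same probe was near background in both channels. It gave 6.99, 30.6 and 12.0 in FA roots and 16.6, 12.1 and 26.3 in control roots, with the FA channel well above background on 1 array and the control channel on none. The log2 ratios were -1.25, 1.34 and -1.13 and were not tested on their own. The fitted short minus long difference was 3.86 (standard error 0.69, limma adjusted p = 0.005029). The locus entered this fit through the FA channel of the short-exposure arrays alone, and its long-exposure ratios were not measured above background, so 3.86 is not a measured size and no bound on the difference is given. The values show a signal of 101.0 or above in FA roots after short exposure and of 30.6 or below in all other channels.

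Os08g0545500, described as DRE-binding protein 1A, was the other locus called higher after short exposure, and 1 array set the size of its change. Its only probe gave 104.7, 52.6 and 269.1 in FA roots and 61.5, 34.7 and 35.2 in control roots. The control was well above background on 2 of the 3 arrays, and the FA and control ranges overlapped between arrays although FA was the higher on each array. The log2 ratios were 0.77, 0.60 and 2.94, a mean of 1.43 ± 1.30 (SD, n = 3, limma adjusted p = 0.03281). This adjusted p is likewise a description, because the FA channel alone reached the signal limit. Without replicate 3 the mean was 0.68 and no longer 2-fold (adjusted p = 0.002429), and with normexp correction it was 0.81.

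After long exposure Os08g0545500 gave 36.7, 34.0 and 61.7 in FA roots, against 108.7, 28.0 and 37.1 in control roots, so replicate 1 ran opposite to replicates 2 and 3, and the control was well above background on 1 array. The mean ratio was -0.18 ± 1.22 (SD, n = 3, limma adjusted p = 0.7318). Short minus long was 1.62 (standard error 0.77, adjusted p = 0.1400), so a difference between the exposures was not detected with these 6 arrays. With the replicate number as a block the adjusted p was 0.03467.

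Os04g0572400, described as CRT/DRE binding factor 1, was the locus called lower after long exposure, and its brightest probe fell after short exposure too. This probe, AY258283, gave 532.0, 605.9 and 172.4 in FA roots after short exposure, against 945.4, 871.2 and 351.4 in control roots. FA was the lower channel on each array, while the signal ranges overlapped because both channels of replicate 3 were dimmer. The mean log2 ratio was -0.79 ± 0.25 (SD, n = 3, limma adjusted p = 0.001989). After long exposure the probe gave 244.4, 262.1 and 203.4 in FA roots and 514.9, 381.0 and 587.3 in control roots, with no overlap. The mean log2 ratio was -1.05 ± 0.50 (SD, n = 3, limma adjusted p = 0.005624), and without replicate 3 it was -0.81, below the 2-fold limit. The difference between exposures, short minus long, was 0.25 (standard error 0.25, adjusted p = 0.4602).

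Both other probes of Os04g0572400 stayed below the signal limit and were not tested. Probe CI190270, which lies in the 3'UTR according to the probe label, had a mean log2 ratio of -0.56 in the short and of -0.59 in the long exposure, where single ratios ran from -1.78 to 0.75. Probe AY114110, in the coding sequence, had means of 0.10 and -0.35, with short-exposure ratios of 0.13, 0.88 and -0.69. The direction seen with the brightest probe was therefore met on all 3 arrays of an exposure by CI190270 after short exposure only.

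**Figure D2:**
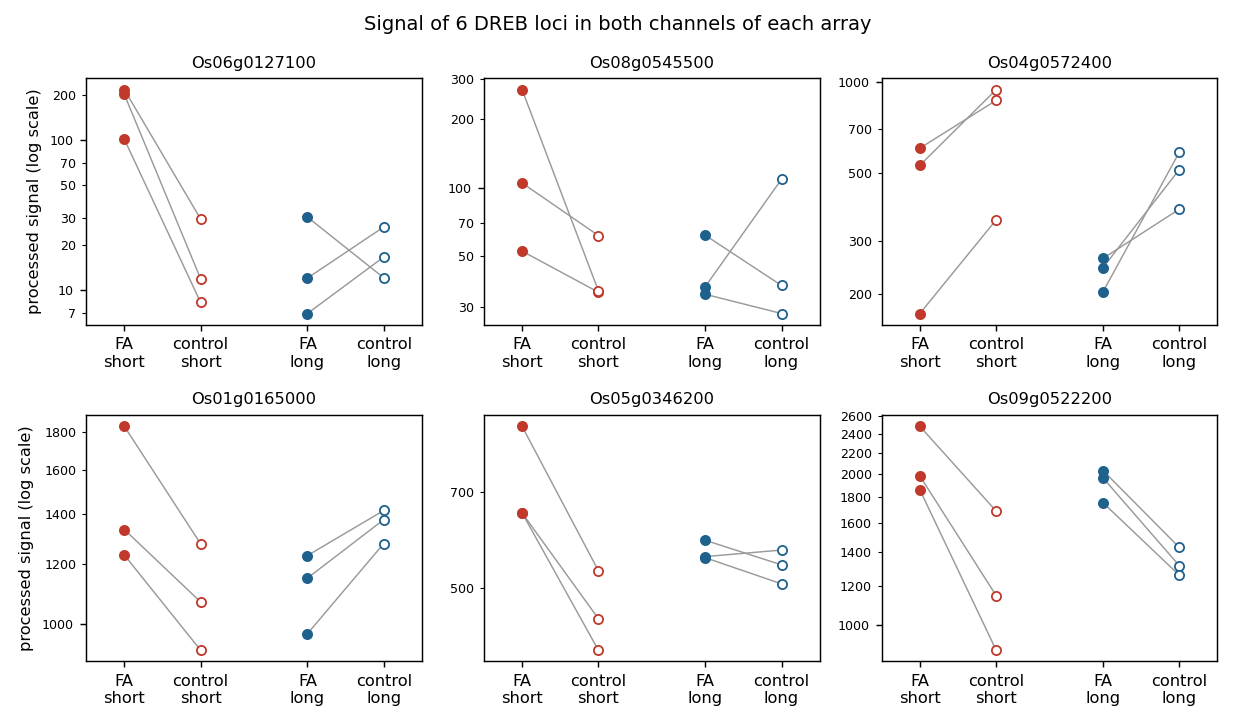
Processed signal (log axis) of 6 DREB loci in the FA channel (filled) and the control channel (open) of each array after short (red) and long (blue) exposure; grey lines join both channels of an array. Os06g0127100 is at 101.0 or above in FA roots after short exposure and at 30.6 or below in every other group.

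Os09g0522200, also described as DRE-binding protein 1A, rose in both exposures on its brightest probe but not on its other probes. The brightest probe, AF494422, which lies in the coding sequence, gave 1979, 1858 and 2483 in FA roots after short exposure, against 1146, 893.2 and 1686 in control roots. The ranges did not overlap, and the mean log2 ratio was 0.80 ± 0.25 (SD, n = 3, limma adjusted p = 0.001851). After long exposure it gave 1962, 1752 and 2029 in FA roots and 1314, 1258 and 1428 in control roots. The mean log2 ratio was 0.52 ± 0.05 (SD, n = 3, limma adjusted p = 0.002243), the narrowest spread among the called or risen loci of that exposure. The exposures differed by 0.28, short minus long (standard error 0.13, adjusted p = 0.1374).

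The other 4 probes of Os09g0522200 span coding sequence and 3'UTR. They were dimmer, with mean control signals of 40.6 to 215.9 after short exposure, where AF494422 had 1242. After long exposure AF494422 had 1333 and the 4 other probes 25.0 to 177.1. After short exposure their mean log2 ratios ran from 0.17 to 0.52, and none of the 3 that were tested passed the limit (adjusted p = 0.1287, 0.5099 and 0.2005). After long exposure their means ran from -0.86 to -0.09, and AF300970 and AK071519 fell, at -0.77 (adjusted p = 0.08490) and -0.86 (adjusted p = 0.08898). Replicate 1 set the size of these means. On it the 4 probes had log2 ratios of -1.61, -1.84, -2.07 and -1.43, while AF494422 had 0.58 on the same array. On replicates 2 and 3 the 4 probes ran from -0.29 to 0.59. Without replicate 1 AF300970 and AK071519 still fell, at -0.24 (limma adjusted p = 0.08031) and -0.25 (adjusted p = 0.06996). AK105599 was then at -0.04 (adjusted p = 0.7671). With and without replicate 1, AF300970 reached the signal limit after long exposure through the control channel alone. Its adjusted p values there are a description and not support for a direction. When the locus was represented by the median of its tested probes, its short-exposure ratio was 0.29 and no longer passed (adjusted p = 0.1695), and its long-exposure ratio turned to -0.66 (adjusted p = 0.1361).

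Os09g0522000, described as a CBF-like protein, had low signals, and its ratio ran lower after short than after long exposure on all 3 probes. Its brightest probe, AY166833, gave 42.2, 27.8 and 68.1 in FA roots after short exposure, against 72.7, 46.9 and 68.5 in control roots. These ratios, -0.78, -0.75 and -0.01, were below the signal limit and were not tested on their own. In the long exposure it gave 61.8, 130.1 and 110.1 in FA roots and 55.7, 63.5 and 100.9 in control roots. It rose by the adjusted p, with a mean of 0.44 ± 0.52 (SD, n = 3, limma adjusted p = 0.09234), and without replicate 2 the mean was 0.14 and did not pass (adjusted p = 0.2427). Short minus long was -0.95 (standard error 0.30, adjusted p = 0.04310), and every short-exposure ratio was below every long-exposure ratio. The locus entered this fit through the long-exposure arrays alone, so this adjusted p is a description and not support for a direction. Without short-exposure replicate 1 the adjusted p was 0.1252, and without short-exposure replicate 2 it was 0.1262.

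The other probes of Os09g0522000 were too dim to be tested in any comparison. Probe AF300972 gave 12.1, 7.09 and 15.6 in FA roots after short exposure, against 54.8, 24.7 and 35.7 in control roots. The control was well above background on 2 arrays and FA on none, which gives at least 2.03-fold lower signal in FA roots on normalized values, with no test. Probe AK062422 had ratios of -1.55, -1.39 and -1.04 after short exposure, with no channel well above background. After long exposure the mean ratios of AF300972 and AK062422 were -0.05 and 0.25, with signs that differed between arrays.

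**Figure D3:**
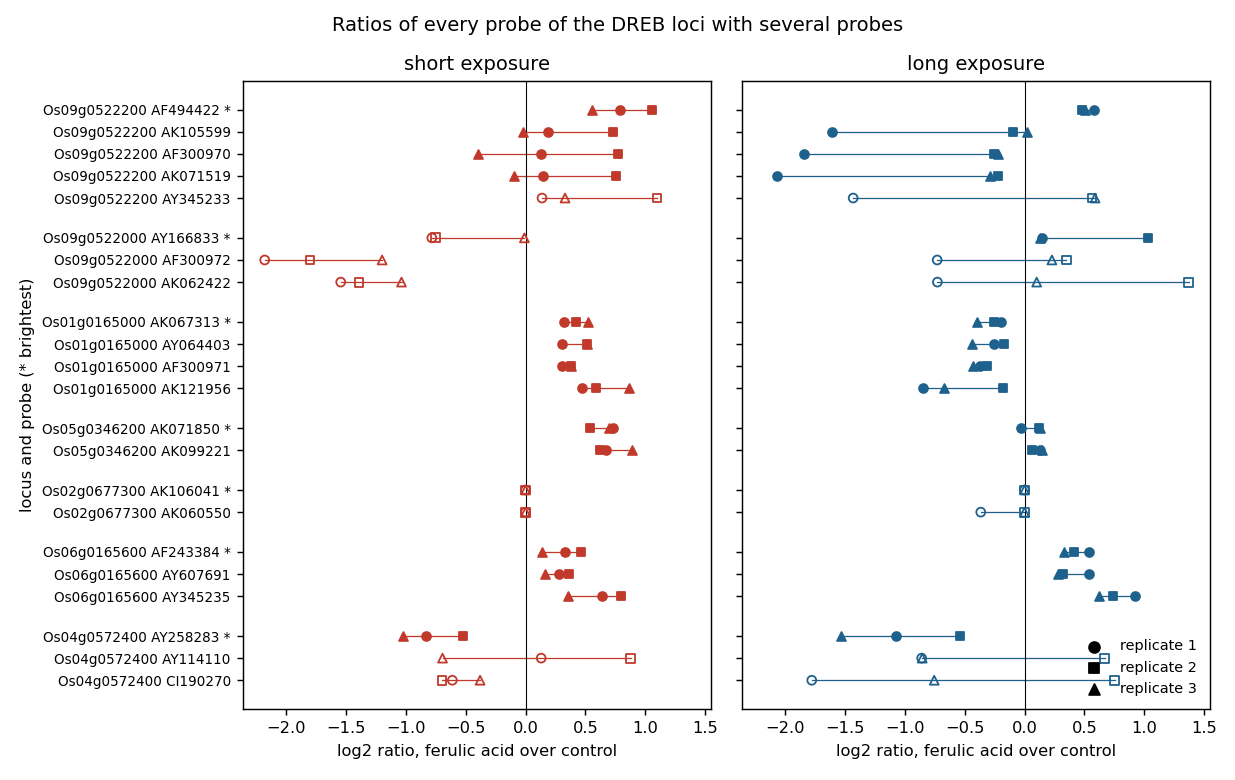
Log2 ratio of FA over control for every probe of the 7 DREB loci with several probes after short (left) and long (right) exposure; symbols are replicates 1 to 3, open symbols were not tested, and lines span the lowest to the highest array. The 4 probes of Os01g0165000 are above 0 on every short-exposure array and below 0 on every long-exposure array, while 4 of the 5 probes of Os09g0522200 drop to -1.43 or below on long-exposure replicate 1.

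Os06g0165600, described as the CRT/DRE binding factor RCBF4, rose in both exposures on all 3 probes. The brightest probe, AF243384, gave 59720, 58620 and 63010 in FA roots after short exposure, against 47670, 42410 and 57350 in control roots, a mean log2 ratio of 0.31 ± 0.17 (SD, n = 3, limma adjusted p = 0.02758). After long exposure it gave 49590, 48510 and 56870 in FA roots and 34150, 36480 and 45120 in control roots, a mean of 0.43 ± 0.10 (SD, n = 3, limma adjusted p = 0.004945). The ranges did not overlap in either exposure. Probe AY607691 had means of 0.27 and 0.38, and probe AY345235 had 0.60 and 0.76 after short and long exposure. All of these were under 2-fold, and short minus long passed on none of the 3 probes (adjusted p = 0.4414, 0.4412 and 0.3779). Without short-exposure replicate 1 the short-exposure ratio was 0.30 at an adjusted p of 0.1004.

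Os09g0522100, described as DREB1E protein, had high signals and ratios that depended on the processing. Its only probe gave 118400, 146000 and 185700 in FA roots after short exposure, against 111800, 143300 and 166800 in control roots. The mean log2 ratio was 0.09 ± 0.06 (SD, n = 3, limma adjusted p = 0.3397), and the signal ranges overlapped. With normexp correction and loess the short-exposure ratio was 0.42 and passed the limit (adjusted p = 0.0008849), and after centring each array on the median of its tested probes it was 0.17 (adjusted p = 0.09011). In the long exposure it gave 130600, 143000 and 159900 in FA roots and 106400, 127700 and 140500 in control roots, and rose by 0.21 ± 0.07 (SD, n = 3, limma adjusted p = 0.03522). With normexp correction and loess the long-exposure ratio was 0.62. That alternative changed the input signals, the background correction and the dye normalization together, and which of them moved the ratios was not tested. Without long-exposure replicate 1 the adjusted p was 0.1742. The exposures differed by -0.13, short minus long (standard error 0.08, adjusted p = 0.2796).

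Os02g0677300, described as CRT/DRE binding factor 1, gave no usable ratio. Neither of its 2 probes was well above background in any channel on any array, and the highest processed signal was 11.9, in a control channel after short exposure. Its ratios were listed as 0 apart from 1 probe on 1 array, as the scanner software does where neither channel is above background. Signal at this level limits what the array can show and does not tell whether the transcript was there.

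Both DREB2-type loci rose after short exposure and had higher ratios after short than after long exposure on all their probes. Os01g0165000, described as DRE binding protein 2, gave 1334, 1234 and 1829 on its brightest probe (AK067313) in FA roots after short exposure, against 1069, 922.4 and 1277 in control roots. FA was the higher channel on each array, with ranges that overlapped between arrays. The log2 ratios were 0.32, 0.42 and 0.52, a mean of 0.42 ± 0.10 (SD, n = 3, limma adjusted p = 0.005754). After long exposure the locus fell, with 1232, 1150 and 970.2 in FA roots and 1414, 1375 and 1278 in control roots. The ranges did not overlap, and the mean log2 ratio was -0.28 ± 0.10 (SD, n = 3, limma adjusted p = 0.01771).

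The turn in sign of Os01g0165000 was met on each of its 4 probes. Their mean log2 ratios ran from 0.35 to 0.64 after short exposure and from -0.57 to -0.28 after long exposure, all with an adjusted p under 0.1 in limma's test. The -0.57 is that of AK121956, which reached the signal limit after long exposure through the control channel alone. Its adjusted p there is a description and not support for a direction. Short minus long was 0.70 on AK067313 (standard error 0.10, adjusted p = 0.001743), 0.73 on AY064403 (adjusted p = 0.002377), 0.73 on AF300971 (adjusted p = 0.0007738) and 1.21 on AK121956 (adjusted p = 0.002886). On each probe every short-exposure ratio was above every long-exposure ratio. The probes read transcripts of 1 locus from the same RNA and are not independent replicates.

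Os05g0346200, described as DREB2A protein, rose after short exposure and had a ratio near 0 after long exposure. Its brightest probe, AK071850, gave 880.2, 649.7 and 649.9 in FA roots after short exposure, against 530.6, 448.4 and 401.5 in control roots, with no overlap. The mean log2 ratio was 0.65 ± 0.10 (SD, n = 3, limma adjusted p = 0.001208), and probe AK099221 had 0.73 ± 0.14 (adjusted p = 0.001088). After long exposure AK071850 gave 557.5, 590.3 and 555.3 in FA roots and 570.4, 541.6 and 506.7 in control roots. The mean log2 ratios were 0.07 ± 0.09 on AK071850 (SD, n = 3, limma adjusted p = 0.3902) and 0.11 ± 0.04 on AK099221 (adjusted p = 0.1740). The exposures differed by 0.58, short minus long (standard error 0.10, adjusted p = 0.003678) on AK071850 and 0.62 (adjusted p = 0.003224) on AK099221.

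Between the exposures, 1 of the 9 DREB loci tested passed both limits, Os06g0127100, where 8.59% of 19701 tested loci did so. By the adjusted p alone 3 had the higher ratio after short exposure (Os06g0127100, Os01g0165000 and Os05g0346200) and 1 the lower (Os09g0522000), where 46.7% of all tested loci passed, so 4 of 9 was near the share over the array. Os06g0127100 entered this comparison through the short-exposure arrays alone and Os09g0522000 through the long-exposure arrays alone. The counts are therefore a description and not support for a direction. All 3 long-exposure arrays shared a slide, and the short-exposure arrays lay on 2 others, so slide and exposure cannot be told apart. A fit with slide as a random block cannot separate them either, and its consensus correlation between arrays of a slide was -0.0986. In that fit the 4 loci passed again and Os09g0522200 passed as well, at 0.29 (limma adjusted p = 0.09568), which is no check on a slide effect.

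The study lists 7 further loci as DREB proteins, of which 6 reached the signal limit in the short and 5 in the long exposure. In the short exposure 5 rose and 1 fell by the adjusted p, and 2 were called, both described as DREB1-type. Over all tested loci 68.0% passed by the adjusted p in that exposure and 9.57% were called. Os08g0545400, described as DREB1C protein, gave 171.5, 168.3 and 209.2 in FA roots, against 13.0, 14.4 and 17.9 in control roots, where the control was well above background on no array. Its mean log2 ratio was 3.61 ± 0.10 (SD, n = 3, limma adjusted p = 8.081e-06), with at least 8.58-fold higher signal in FA roots on normalized values. Os08g0545400 reached the signal limit through the FA channel alone, so this adjusted p is a description and not support for a direction. Both channels of its long-exposure arrays were not well above background. Os06g0166400, described as DREB1D protein, had a mean log2 ratio of 1.29 ± 0.07 after short exposure (SD, n = 3, limma adjusted p = 9.419e-05) and of 0.58 ± 0.07 after long exposure (adjusted p = 0.001953). After long exposure 4 of the 5 tested loci rose and none was called, by limma's test, where 57.7% of all tested loci passed and 2.49% were called.

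Os08g0545400 was also the locus whose pattern lay nearest to that of Os06g0127100. Among 123 other loci of the study's AP2/ERF list with ratios on all 6 arrays, its Euclidean distance over the 6 log2 ratios was 2.34, followed by Os02g0654700 at 3.06, an ethylene-responsive element binding protein, and Os03g0860100 at 3.19, described as ethylene responsive element binding factor 2. Nearest to Os08g0545500 were Os08g0442400 (2.28), Os02g0546600 (2.50) and Os07g0674800 (2.53). Nearest to Os04g0572400 were Os08g0173700 (1.42), Os12g0126300 (1.61) and Os09g0286600 (1.63). These distances describe likeness of ratios over 6 arrays and mix measured ratios with ratios of probes near background.

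In the AP2/ERF list as a whole, without the 10 loci but with the further DREB loci, 16 of 78 tested loci were called higher and 1 lower after short exposure, with a median log2 ratio of 0.19. After long exposure 1 of 78 tested loci was called, higher, and the median was 0.24. Of the same list 11 were called with a higher and 2 with a lower ratio after short than after long exposure, out of 84 tested. Over all tested loci 9.57% were called after short exposure, 2.49% after long exposure and 8.59% between them. The list holds Os08g0545400, which reached the signal limit after short exposure through the FA channel alone, so these counts are a description. The list was taken from the study's table of the family. In the short exposure the tested DREB loci ran from -0.79 to 3.52 and this list from -2.43 to 3.81. In the long exposure the DREB loci ran from -1.05 to 0.52 and the list from -0.68 to 1.43, with Os04g0572400 below the lowest locus of the list.

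**Figure D4:**
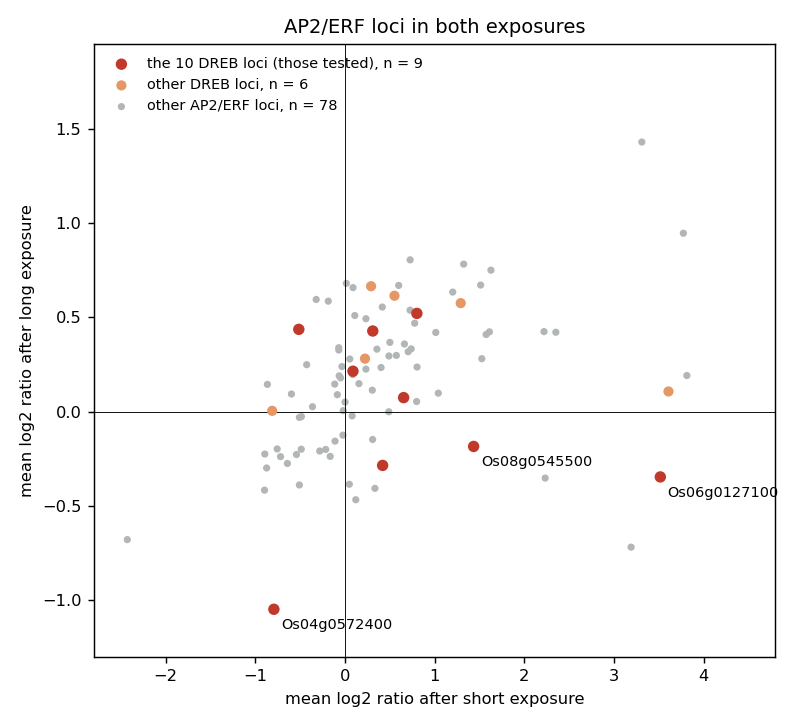
Mean log2 ratio of FA over control after short (x axis) and long (y axis) exposure for AP2/ERF loci tested in either exposure: 9 of the 10 DREB loci (red), 6 further DREB loci (orange) and 78 other loci (grey). Os06g0127100 lies far to the right and near 0 on the y axis, beside the orange point of Os08g0545400, and Os04g0572400 is the lowest point.

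Of 4 loci that the study describes as signalling or regulatory proteins of kinds placed upstream of DREB genes, 2 were tested. Os03g0285800, described as MAP kinase 1, was called higher after short exposure, with signals of 3997, 3184 and 5685 in FA roots and 1773, 1420 and 2332 in control roots. Its mean log2 ratio was 1.21 ± 0.07 after short exposure (SD, n = 3, limma adjusted p = 0.0001168), against 0.05 ± 0.16 after long exposure (adjusted p = 0.6149). Os09g0532400, a response regulator receiver domain protein, fell by less than 2-fold in both exposures, at -0.19 and -0.57. Os01g0928000, described as ICE1, the inducer of CBF expression, and Os11g0523700, with a bHLH domain, were below the signal limit in both exposures.

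Of the root and green shoot markers that were planned, only 1 root gene was used, so the root label itself was not checked. This gene, Os02g0745100, is a NOD26-like channel known in rice as a root silicon channel. It was bright in every channel, with 8458 to 13150 in FA roots and 13960 to 25850 in control roots after short exposure, and 35040 to 49940 in FA roots and 27520 to 31710 in control roots after long exposure. Its log2 ratio fell by 0.89 after short exposure (limma adjusted p = 0.0007055) and rose by 0.46 after long exposure (adjusted p = 0.01104), the opposite signs to those of Os01g0165000. In such bulk samples fewer cells of a type and less RNA per cell cannot be told apart, and the part of cell makeup in the DREB results was not tested.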

How the data were processed

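Root RNA was compared on 6 two-colour Agilent 44K arrays. The authors' scanner software, Feature Extraction, is version 10.7.1.1 per the file headers. The deposited files hold a processed intensity per channel, made by the authors with background correction and LOWESS dye normalization, and a raw median intensity. They also hold the authors' log10 ratio of FA over control, listed as 0 where neither channel was above background (13.8% to 17.0% of spots). The deposited value table of log2 ratios, made by the authors, lay within 0.001 of log2 of the processed signals for 98.9% or more of the probes on each array.

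Ratios were converted to log2. Control spots were dropped, as were spots flagged as non-uniform or as population outliers, and repeated spots of a probe were averaged. Mean ratios were tested in R 4.3.3 with limma 3.58.1 (lmFit, eBayes), within each exposure against 0 and between exposures on 6 arrays, and adjusted by the Benjamini-Hochberg method over all tested probes (27779 after short exposure, 27074 after long exposure and 28517 between them). The scripts were tested on simulated data. The arrays are limited in precision by their number, 3 for an exposure, and by signal over background.

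The DREB loci, the gene lists and the tests were chosen with earlier results of these data known. Named genes were all 10 loci with every probe, up to 5 called loci from each other list, and for each called DREB locus the 3 AP2/ERF loci nearest in Euclidean distance. Descriptions are those of the study's tables. Family entries whose description names another protein were left out, and possible target genes of DREB proteins, which the study's tables did not describe, were not analysed here. Alternatives covered background correction, centring, the value table, the signal filter, each array left out, the median of a locus's probes, one fit of all arrays, a replicate or slide block, 2-fold on every array and the methods' t-test with Benjamini-Hochberg adjustment.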

Additional observations from a re-analysis of the deposited data

Results flagged for a closer look

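The ratio of FA over control differed between short and long exposure in limma's test of the difference on 8 probes of 4 DREB loci, 4 of the 9 loci tested, where 46.7% of all tested loci passed the same limit. For Os06g0127100 the fitted difference was 3.86 on the log2 scale (short minus long, adjusted p = 0.005029). Its long-exposure ratios, from -1.25 to 1.34, came from a probe near background and it entered the fit through the short-exposure FA channel alone, so 3.86 is not a measured size. Os01g0165000 differed on its 4 probes by 0.70 (AK067313), 0.73 (AY064403), 0.73 (AF300971) and 1.21 (AK121956), each with a mean above 0 after short and below 0 after long exposure. Os05g0346200 differed by 0.58 (AK071850) and 0.62 (AK099221). Os09g0522000 differed the other way, by -0.95 (AY166833, adjusted p = 0.0431). It entered the fit through the long-exposure arrays alone, so this adjusted p is a description. Without short-exposure replicate 1 the adjusted p was 0.1252, and without short-exposure replicate 2 it was 0.1262. Slide and exposure cannot be told apart on these arrays.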

How the results depend on the processing

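The count of called DREB loci after short exposure was 2. It was 1 with normexp, with no signal filter, with the signal limit of 100 on all arrays, with the methods' t-test and with 2-fold on every array, each time Os06g0127100. It was 0 with both channels well above background on every array, which leaves Os06g0127100 out. Leaving out each array gave 1 to 2. After long exposure the count was 1 (Os04g0572400). It was 0 with normexp, with no signal filter (adjusted p = 0.1106), with the methods' t-test (0.1543) and with 2-fold on every array, and 0 to 1 with each array left out. By the adjusted p alone the long-exposure count of 6 was 2 with the methods' t-test (Os09g0522200 and Os06g0165600). Between exposures the count of 1 was 2 with normexp and with the replicate block, which adds Os08g0545500, 0 with that limit on all arrays or with both channels well above background on every array, and 1 to 2 with each array left out. By the adjusted p alone the count of 4 was 2 under both stricter signal filters, 5 with the replicate block and 6 with normexp, which adds Os09g0522200 and Os08g0545500. The cause of these moves was not tested, apart from filters that left loci out and the normexp offset, which shrinks ratios of dim probes by its construction.

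The long-exposure ratio of Os09g0522200 turned to -0.66 with the median of its probes, and the short-exposure ratio of its probe AF300970 ranged from -0.13 to 0.45 with each array left out, turning without replicate 2, an alternative chosen after seeing the data. Ratios of single loci or probes kept their direction and side of the adjusted p limit of 0.1 in 373 of 406 alternatives, lost that limit in 19, gained it in 12 and turned in 2. The 2-fold limit was not part of this count, so a ratio counted as kept could still lose its call. Alternatives that changed only the signal filter, the test or the replicate block left the ratio itself as it was, so they could not turn it. The 406 also hold single probes added after seeing the data. Depth, as signal over background, limits Os02g0677300, Os09g0522000, Os06g0127100 and Os08g0545500. Replicate numbers did not pair the samples: deviations from the exposure means correlated at -0.0794, -0.0135 and 0.135 for replicates 1, 2 and 3, and not every array correlated best with its own number. With the replicate block 2368 probes were called between exposures, and 2353 without it.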
